A study of Mus musculus with 10 samples.

Results

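Complex I, the NADH:ubiquinone oxidoreductase of mitochondria, was followed here through the nuclear genes for its subunits and for the Ndufaf assembly factors in mouse brown adipocytes. The members were all rows of the deposited gene count table whose symbol is Ndufa, Ndufb, Ndufc, Ndufs or Ndufv with a number, Ndufab1, or Ndufaf with a number, less symbols ending in -ps or -rs. They came to 45 of the 24640 rows: 36 subunits, 7 assembly factors, and Ndufa4 and Ndufa4l2, which carry the family name but are listed apart because Ndufa4 is now counted with complex IV and Ndufa4l2 is its paralogue. Of the 45, 44 passed the filter on low counts and were tested, and Ndufs5, with 0 to 8 counts per library, was not.

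Complex I takes electrons from NADH through a flavin and a chain of iron-sulphur clusters in its matrix arm, passes them to ubiquinone, and pumps protons through its membrane arm. The core subunits carry the chemistry and are shared with bacteria, the accessory subunits surround them, and assembly factors help to build the enzyme and leave it once it is complete. In brown fat the proton gradient made by the respiratory chain is what uncoupling protein turns into heat. The subunits of the proton-pumping part that are encoded by mitochondrial DNA (the mt-Nd genes) are not members.

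The study profiled bulk RNA from brown adipocytes of C57BL/6 mice in 5 groups of 2 libraries. Cells received DMSO, the solvent control, or the compound BML-260, for 1 day or for 3 days, and the fifth group received an agent given only as ISO, listed at 1 day. No genetic change, culture age or differentiation protocol is given, and whether the libraries of a group came from different cultures or mice is not stated, so p-values reflect spread among these libraries alone, and that spread may be technical.

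Libraries held 16955918 to 21185675 counts. All 9 brown adipocyte markers were measured, and their summed level, in CPM (counts scaled to a common library size, TMM-adjusted), was 9905 to 10059.5 with DMSO at 1 day, 13397 to 13892 with BML-260 at 1 day, 6959 to 7273 with ISO, 7489 to 7655 with DMSO at 3 days and 7785 to 7985 with BML-260 at 3 days. The 7 preadipocyte or fibroblast markers, all measured and none at 0, summed to 297 to 310.5, 194 to 207, 468 to 498, 515 to 562 and 299.9 to 309.7 CPM in the same order of groups. The 5 smooth muscle or pericyte markers summed to 172 to 173, 104 to 114, 169 to 195, 221 to 230.5 and 97.2 to 108 CPM. Endothelial (4 of 4 with a row), macrophage (2 of 4) and skeletal muscle (2 of 5) markers summed to at most 1.42, 7.18 and 1.43 CPM, with Cdh5 and Ckm at 0 in 8 of 10 libraries each. Fabp4, a lipid chaperone abundant in fat cells, made up 60.3% to 77.0% of the brown adipocyte sum in every library. The other 8 markers of that list summed to 3542 to 3637 CPM with DMSO at 1 day, 3084 to 3332 with BML-260 at 1 day, 2665 to 2890.3 with ISO, 2965 to 2981 with DMSO at 3 days and 2138 to 2256 with BML-260 at 3 days, so with BML-260 at either time the full sum was higher than with DMSO and the sum without Fabp4 was lower. The part of these markers in the results on complex I was not tested. In bulk RNA, fewer adipocytes and less RNA per adipocyte cannot be told apart.

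The members together took 1.01% of all counts in each DMSO library at 1 day and 1.07% and 1.11% with BML-260 at 1 day. With ISO the share was 0.749% and 0.737%, with DMSO at 3 days 0.766% and 0.763%, and with BML-260 at 3 days 0.811% and 0.826%. The groups did not overlap in this share. Assembly factors contributed only 0.0158% to 0.0241% of counts.

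To compare genes with each other, CPM was divided by the length of the principal transcript in kilobases (kb), averaged over the 10 libraries. The 7 core subunits had a median of 203 CPM per kb, and the lowest of them was Ndufs3 at 96.9. That rank is uncertain, since a row at least 95% identical to Ndufs3 over 792 aligned bases, Gm12251, held more counts. The 36 subunits had a median of 197 CPM per kb and the 7 assembly factors one of 22.0, from 5.71 for Ndufaf4 to 36.6 for Ndufaf2, a ratio of medians of 8.96. All but 3 subunits, 33 of 36, lay above every assembly factor, and 32 did so per kb of all annotated exons. The exceptions were Ndufab1, Ndufb2 and Ndufs5. The row BC002163, at least 95% identical to Ndufs5 over 319 aligned bases, held 1789 to 2782 counts per library against 0 to 8. The level of Ndufs5 is therefore uncertain. Length matters for Ndufab1, whose principal transcript is annotated at 3479 bases and whose mean was 90.9 CPM. Ndufb2, annotated at 4371 bases, was also low before division by length, at a mean of 10.6 CPM. Ndufb9, of the distal membrane arm, had the highest level of all at 982 CPM per kb.

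**Figure D1:**
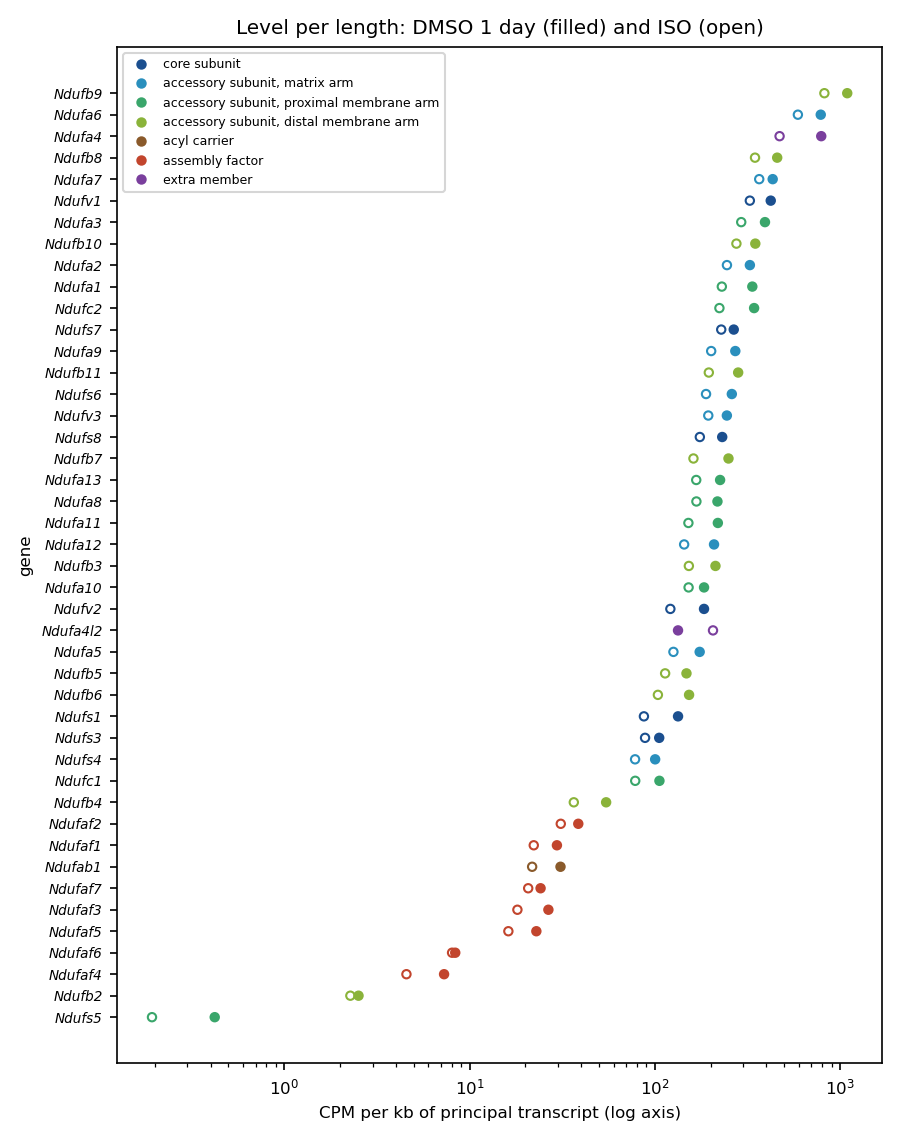
Level of 44 of the 45 genes per kb of principal transcript (CPM per kb, log axis) with DMSO at 1 day (filled) and ISO (open), as means of 2 libraries, ordered by the mean over all libraries and coloured by role. The 7 assembly factors sit below most subunits, and open points lie left of filled ones for every gene shown except Ndufa4l2.

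The genes lie on 16 chromosomes, and 12 of 45 (26.7%) have a protein-coding neighbour that starts within 1000 bases in the opposite direction, against 6.79% of 21951 protein-coding genes in GENCODE M21 on GRCm38. The share with such a neighbour was not counted among the genes tested here. RefSeq promoters (build GRCm38.p6, 250 bases before to 50 bases after the start, 300 in all) were found for 39 members. Motifs of 4 factors known to act on genes of respiration were looked for on both strands, by exact letters. AAGATGGC, read by YY1, was in 7 members (17.9%) against 3.19% of all 27025 promoters and 5.16% of the 9896 of genes tested here. In those 7 it began at base 23 to 39, counting the start as base 1, always as written, and the letters include an ATG. CGCATGCG, read by NRF1, was in 4 members (10.3%, against 2.07% of all and 4.34% of genes tested), and the looser GCGCANGC, whose matches can overlap those of the strict form, was in 11 (28.2%, against 11.2% and 22.2%). ACCGGAAG or CCGGAAGT, overlapping forms of the ETS motif that GABPA reads, were in 4 (10.3%, against 5.52% and 11.4%). TCAAGGTCA, read by estrogen-related receptors, was in 0 of 39, against 0.466% of all and 0.344% of genes tested, which says only that these letters are not in these windows. The median GC content was 59.3% in members and 60.7% in genes tested. A match is a description of letters and not a shown binding site.

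Promoters are shown for 4 of the members that rose with BML-260 at 3 days in every alternative tried, chosen after their values were seen to show each kind of motif found, and for Ndufb3, the subunit that fell there. Capitals mark the motif, and each sequence runs 5′ to 3′ on the gene's strand. Ndufs8 (chr19:3912725-3913024, minus strand) holds the ETS letters in reverse complement from base 16. Ndufa11 (chr17:56717512-56717811, plus strand) holds the NRF1 letters from 59 bases before the start. Ndufs6 (chr13:73328433-73328732, minus strand) and Ndufs7 (chr10:80249199-80249498, plus strand) hold the YY1 letters from base 34 and base 25. Ndufb3 (chr1:58586147-58586446, plus strand) holds none of the strict motifs. Nor do Ndufa6, Ndufa10, Ndufa12, Ndufa13 and Ndufv2, which also rose at 3 days in every alternative. In all, 15 of 39 members (38.5%) hold a strict NRF1, ETS or YY1 motif, against 19.3% of genes tested. A link between motif and response was not tested.
Ndufs8: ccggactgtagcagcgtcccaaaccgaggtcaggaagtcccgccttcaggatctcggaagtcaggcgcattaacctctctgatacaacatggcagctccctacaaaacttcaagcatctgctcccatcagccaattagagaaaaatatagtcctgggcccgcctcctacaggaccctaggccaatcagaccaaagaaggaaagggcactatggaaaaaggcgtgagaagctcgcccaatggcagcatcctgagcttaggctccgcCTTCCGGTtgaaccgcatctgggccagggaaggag
Ndufa11: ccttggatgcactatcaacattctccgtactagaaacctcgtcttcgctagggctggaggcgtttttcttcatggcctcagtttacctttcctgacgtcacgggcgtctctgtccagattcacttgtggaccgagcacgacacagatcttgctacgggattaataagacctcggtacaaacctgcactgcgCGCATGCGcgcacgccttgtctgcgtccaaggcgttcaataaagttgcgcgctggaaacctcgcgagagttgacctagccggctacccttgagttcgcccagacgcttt
Ndufs6: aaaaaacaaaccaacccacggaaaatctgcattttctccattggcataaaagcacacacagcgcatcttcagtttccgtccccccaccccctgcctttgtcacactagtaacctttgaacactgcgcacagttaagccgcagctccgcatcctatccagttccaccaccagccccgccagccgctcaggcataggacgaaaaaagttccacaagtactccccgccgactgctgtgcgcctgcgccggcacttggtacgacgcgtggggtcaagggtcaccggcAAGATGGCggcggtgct
Ndufs7: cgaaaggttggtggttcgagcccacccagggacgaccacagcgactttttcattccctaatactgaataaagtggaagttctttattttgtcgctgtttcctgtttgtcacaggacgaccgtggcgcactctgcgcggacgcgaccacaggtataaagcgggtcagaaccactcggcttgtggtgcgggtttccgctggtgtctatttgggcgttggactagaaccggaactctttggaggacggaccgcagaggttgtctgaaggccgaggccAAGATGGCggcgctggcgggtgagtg
Ndufb3: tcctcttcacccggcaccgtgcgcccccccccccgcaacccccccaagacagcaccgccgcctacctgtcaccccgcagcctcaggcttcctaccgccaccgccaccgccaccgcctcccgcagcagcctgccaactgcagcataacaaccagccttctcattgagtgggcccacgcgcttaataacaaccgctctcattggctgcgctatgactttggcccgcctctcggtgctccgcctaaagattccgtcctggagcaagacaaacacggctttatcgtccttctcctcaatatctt

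The clearest pattern was a division of the 10 libraries. It was not set out beforehand, so the counts below describe the division and do not test it. ISO is also listed at 1 day, so the division is not one of time alone. For 39 of the 44 tested members (88.6%) the 4 libraries with DMSO or BML-260 at 1 day all lay above the 6 with ISO, DMSO at 3 days and BML-260 at 3 days, which was so for 13.5% of all 15212 genes tested. Ndufa3, Ndufa7, Ndufaf5 and Ndufaf6 overlapped. Ndufa4l2 had the opposite order, with all 4 libraries of DMSO or BML-260 at 1 day below the other 6. Of the subunits 33 of 35 showed the order, and of the assembly factors 5 of 7.

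**Figure D2:**
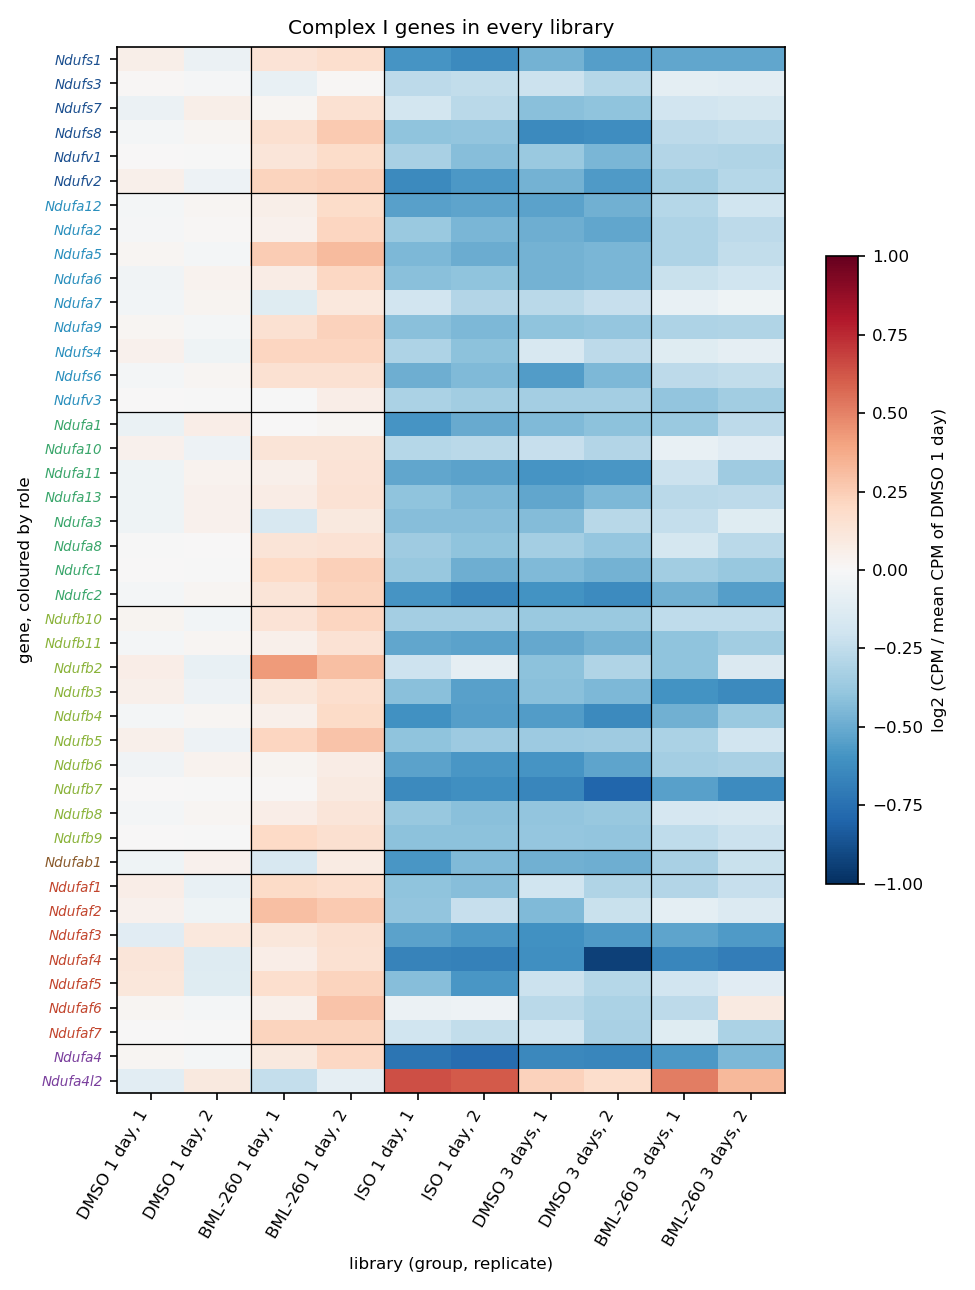
Heat map of log2(CPM / mean CPM with DMSO at 1 day) for 43 of the 44 tested genes (rows, grouped and coloured by role) in the 10 libraries (columns, by group and replicate). Blue fills the columns of ISO, DMSO at 3 days and BML-260 at 3 days for nearly all rows, and Ndufa4l2 in the last row has the opposite colours.

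Against DMSO at 1 day, 41 of 44 members fell with ISO, 1 rose and 2 were not called, where a call is an adjusted p under 0.05 in edgeR's quasi-likelihood test over all genes. Of all genes tested 20.3% were called lower and 21.4% higher. The median member stood at -0.42 on the log2 scale, a decrease of 25.3%, beside -0.0036 for all genes. Of the 9 brown adipocyte markers 5 were called lower with ISO (Adipoq, Fabp4, Lipe, Plin1 and Ppara) and 2 higher (Cidea and Ucp1), and 6 of 7 preadipocyte markers were called higher. All 7 core subunits fell, as did 9 of 9 accessory subunits of the matrix arm, 8 of 8 of the proximal membrane arm, 9 of 10 of the distal membrane arm, and Ndufab1. Ndufb2, at 11.5 and 10.5 CPM with DMSO at 1 day, was the subunit not called (-0.14).

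Between DMSO at 1 day and DMSO at 3 days, 42 of 44 members fell and 1 rose, where 16.8% of all genes were called lower and 18.1% higher. The median was -0.42 for members and 0.0071 for all genes, and all 35 tested subunits fell. Brown adipocyte markers went both ways over this time, with Cidea, Ppara, Pparg and Ucp1 called higher and Adipoq, Fabp4, Lipe and Plin1 lower, and 6 of 7 preadipocyte markers were called higher. The ISO and 3-day comparisons share the DMSO libraries of 1 day, so their values are given side by side and not as independent evidence of each other. Core subunits follow with their level in every library, those of the NADH end first.

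Ndufs1, the large iron-sulphur subunit at the NADH end, stood at 369 and 341 CPM with DMSO at 1 day, 390.2 and 398 with BML-260 at 1 day, 236 and 228 with ISO, 255 and 243 with DMSO at 3 days, and 248 and 248 with BML-260 at 3 days. Its ISO and 3-day libraries were all below every 1-day DMSO or BML-260 library, and ISO was the lowest group. Ndufs1 fell by 0.61 (SE 0.05, edgeR adjusted p = 6.49e-11) on the log2 scale with ISO and fell by 0.51 (SE 0.05, edgeR adjusted p = 3.01e-09) between DMSO at 1 and 3 days. Ndufv1, which holds the flavin and binds NADH, stood at 704 and 698 CPM with DMSO at 1 day, 763 and 795 with BML-260 at 1 day, 559.8 and 521 with ISO, 543 and 509 with DMSO at 3 days, and 573 and 569.8 with BML-260 at 3 days. ISO and DMSO at 3 days overlapped there, and BML-260 at 3 days lay just above both. Ndufv1 fell by 0.38 (SE 0.05, edgeR adjusted p = 2.21e-07) with ISO and fell by 0.41 (SE 0.05, edgeR adjusted p = 7.23e-08) over time. Ndufv2, the iron-sulphur partner of Ndufv1, stood at 323 and 302 CPM with DMSO at 1 day, 365 and 368 with BML-260 at 1 day, 201 and 210.2 with ISO, 226 and 211 with DMSO at 3 days, and 246 and 257 with BML-260 at 3 days. No 2 groups overlapped for it, with BML-260 at 1 day highest and ISO lowest. Ndufv2 fell by 0.60 (SE 0.05, edgeR adjusted p = 1.6e-10) with ISO and fell by 0.52 (SE 0.05, edgeR adjusted p = 4.03e-09) over time.

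Ndufs3, of the ubiquinone module, stood at 112 and 109 CPM with DMSO at 1 day, 105 and 112 with BML-260 at 1 day, 91.99 and 93.2 with ISO, 94.9 and 90.8 with DMSO at 3 days, and 103 and 103 with BML-260 at 3 days. Its range over libraries was narrow, and DMSO and BML-260 overlapped at 1 day. Ndufs3 fell by 0.25 (SE 0.05, edgeR adjusted p = 0.000178) with ISO and fell by 0.25 (SE 0.05, edgeR adjusted p = 0.000279) over time, and the row Gm12251, at least 95% identical to it over 792 aligned bases, held 2523 to 3590 counts against 1538 to 2113 for Ndufs3, so its values are uncertain.

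Ndufs7, which holds the last iron-sulphur cluster before ubiquinone, stood at 251 and 273 CPM with DMSO at 1 day, 265 and 292 with BML-260 at 1 day, 231 and 218 with ISO, 196 and 198 with DMSO at 3 days, and 229.5 and 232 with BML-260 at 3 days. DMSO at 3 days was the lowest group here, and ISO overlapped BML-260 at 3 days. Ndufs7 fell by 0.23 (SE 0.05, edgeR adjusted p = 0.00077) with ISO and fell by 0.41 (SE 0.05, edgeR adjusted p = 4.81e-07) over time. Ndufs8, which carries further iron-sulphur clusters and lies at chromosome 19, 3908863 to 3912774 on GRCm38, stood at 229 and 235 CPM with DMSO at 1 day, 259.9 and 278 with BML-260 at 1 day, 175 and 176 with ISO, 149 and 151 with DMSO at 3 days, and 194 and 196 with BML-260 at 3 days. Its 5 groups were all apart, with DMSO at 3 days lowest. Ndufs8 fell by 0.40 (SE 0.05, edgeR adjusted p = 7.66e-08) with ISO and fell by 0.63 (SE 0.05, edgeR adjusted p = 5.88e-11) over time.

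The 5 members with the smallest p for ISO were Ndufa4, Ndufs1, Ndufc2, Ndufv2 and Ndufb7. Ndufc2, of the proximal membrane arm, stood at 232 and 237 CPM with DMSO at 1 day, 256 and 273 with BML-260 at 1 day, 156 and 149 with ISO, 155 and 151 with DMSO at 3 days, and 168 and 160.0 with BML-260 at 3 days. ISO and DMSO at 3 days overlapped, and both lay below all other groups. Ndufc2 fell by 0.62 (SE 0.05, edgeR adjusted p = 6.99e-11) with ISO. Ndufb7, on the intermembrane space side of the distal arm, stood at 156 and 155 CPM with DMSO at 1 day, 156 and 165 with BML-260 at 1 day, 99.8 and 101 with ISO, 98.7 and 89.8 with DMSO at 3 days, and 107 and 101 with BML-260 at 3 days. It was lowest with DMSO at 3 days, and ISO overlapped BML-260 at 3 days. Ndufb7 fell by 0.63 (SE 0.05, edgeR adjusted p = 2.61e-10) with ISO and fell by 0.72 (SE 0.05, edgeR adjusted p = 4.47e-11) over time, the largest 3-day decrease of a subunit. Of the 42 members called with ISO, 40 kept the call in each of the 10 alternative settings tried, the exceptions being Ndufaf2 and Ndufaf7.

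**Figure D3:**
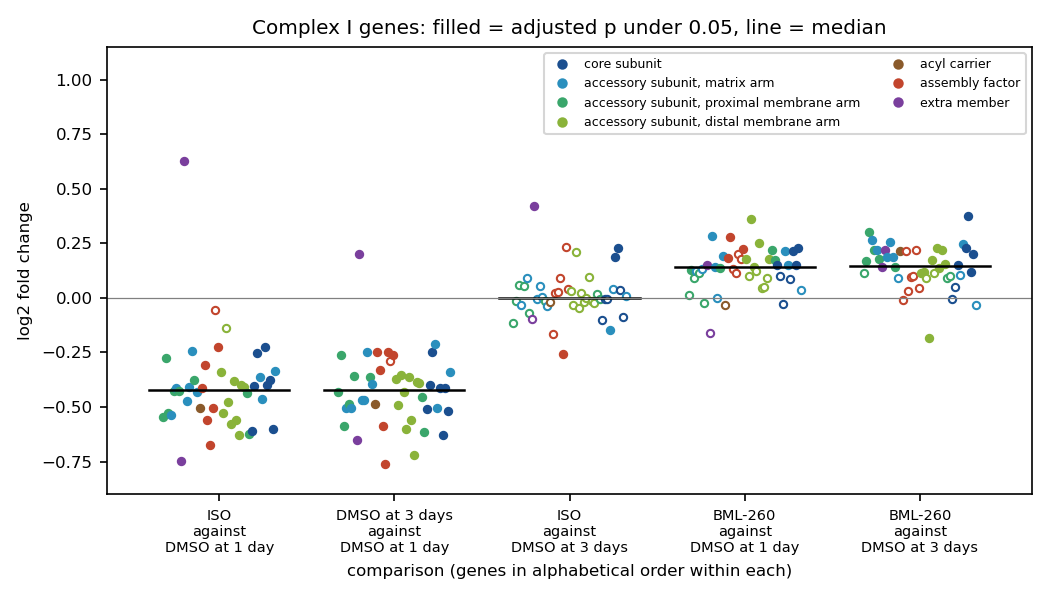
log2 fold changes of the 44 tested genes in 5 comparisons, coloured by role, filled where the edgeR adjusted p is under 0.05, with the median as a black line. The medians lie at -0.42, -0.42, -0.0025, 0.14 and 0.15 from left to right, and the isolated high points are Ndufa4l2.

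Set directly against each other, ISO (listed at 1 day) and DMSO at 3 days differ in both agent and time, and the cause of any difference cannot be told apart. Of the 44 members, 3 were called higher with ISO and 2 lower, where 10.6% and 9.24% of all genes were called in those directions, and the member median was -0.0025. The 3 higher were Ndufa4l2, Ndufs8 (0.23 (SE 0.05, edgeR adjusted p = 0.000898)) and Ndufs7 (0.19 (SE 0.05, edgeR adjusted p = 0.0108)). The 2 lower were Ndufs4, an accessory subunit of the matrix arm (-0.15 (SE 0.05, edgeR adjusted p = 0.0365)), and Ndufaf5 (-0.26 (SE 0.09, edgeR adjusted p = 0.0418)). DESeq2's Wald test called 3, all higher. Leaving out DMSO 3 days replicate 1 left 2 calls, both higher, and leaving out ISO replicate 2 or DMSO 3 days replicate 2 left 3, all higher. For the 39 not called, a missed threshold does not show equal levels, but 35 of them had a 95% interval of the log2 difference within 0.25 of 0. The widest bounds were -0.31 for Ndufaf1 and 0.51 for Ndufaf6.

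With BML-260 at 1 day 22 of 44 members rose against DMSO at 1 day and 0 fell in edgeR's quasi-likelihood test, with a median of 0.14 on the log2 scale (10.2% higher) beside -0.0010 for all genes. Of all genes tested 9.32% were called higher and 8.62% lower. At an unadjusted p under 0.05 the count of lower members was 1, Ndufa4l2, and in DESeq2's Wald test 0. By role, 4 of 7 core subunits rose, 5 of 9 of the matrix arm, 4 of 8 of the proximal and 5 of 10 of the distal membrane arm, 3 of 7 assembly factors, and Ndufa4. The count rests on the libraries: it was 8 without DMSO 1 day replicate 2 and 11, of which 10 higher, without BML-260 1 day replicate 2. The 7 members called in every alternative were Ndufa5, Ndufa9, Ndufb5, Ndufb9, Ndufc1, Ndufs8 and Ndufv2. Of the 9 brown adipocyte markers 5 were called higher here (Cidea, Elovl3, Fabp4, Ppara and Ucp1) and 2 lower (Adipoq and Pparg), and 4 of 7 preadipocyte and 3 of 4 tested smooth muscle or pericyte markers were called lower.

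Ndufa5, an accessory subunit beside the ubiquinone module, had the smallest p and stood at 155 and 150.4 CPM with DMSO at 1 day, 182 and 189.6 with BML-260 at 1 day, 112 and 108 with ISO, 110.0 and 111 with DMSO at 3 days, and 123 and 129 with BML-260 at 3 days. Both BML-260 libraries at each time were above both DMSO libraries of that time. Ndufa5 rose by 0.28 (SE 0.05, edgeR adjusted p = 7.06e-05) with BML-260 at 1 day and rose by 0.19 (SE 0.05, edgeR adjusted p = 0.003) at 3 days, the latter lost without BML-260 3 days replicate 2. Ndufb5, of the distal arm, stood at 165 and 154 CPM with DMSO at 1 day, 186 and 194 with BML-260 at 1 day, 121 and 124 with ISO, 124 and 125 with DMSO at 3 days, and 129 and 140.2 with BML-260 at 3 days. Its BML-260 libraries lay above DMSO at both times. Ndufb5 rose by 0.25 (SE 0.05, edgeR adjusted p = 0.000635) at 1 day, and its 3-day value was 0.11 (SE 0.05, edgeR adjusted p = 0.0877). Ndufc1, a small subunit of the proximal arm, stood at 133 and 132 CPM with DMSO at 1 day, 152 and 156 with BML-260 at 1 day, 101 and 94.2 with ISO, 97.4 and 95.3 with DMSO at 3 days, and 104 and 102 with BML-260 at 3 days. At 3 days BML-260 was only just above DMSO. Ndufc1 rose by 0.22 (SE 0.05, edgeR adjusted p = 0.00156) at 1 day, and its 3-day value was 0.093 (SE 0.05, edgeR adjusted p = 0.149).

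Of the core subunits, Ndufv2 rose by 0.23 (SE 0.05, edgeR adjusted p = 0.00097) and Ndufs8 rose by 0.21 (SE 0.04, edgeR adjusted p = 0.00116) at 1 day. Ndufv1 rose by 0.15 (SE 0.05, edgeR adjusted p = 0.0186) and Ndufs1 rose by 0.15 (SE 0.05, edgeR adjusted p = 0.0214), but both lost the call without DMSO 1 day replicate 2 or BML-260 1 day replicate 2. Ndufv1 also lost it without DMSO 1 day replicate 1, and Ndufs1 without BML-260 1 day replicate 1 and with only the groups compared. Ndufs3 and Ndufs7 were not called, at -0.029 and 0.088. Ndufb2 had the largest fold change of any member, 0.36 (SE 0.11, edgeR adjusted p = 0.0263), from the lowest counts among tested subunits, a call lost without DMSO 1 day replicate 2 or BML-260 1 day replicate 1. DESeq2's Wald test also lost the call of Ndufb2.

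With BML-260 at 3 days 26 of 44 members rose against DMSO at 3 days and 1 fell, Ndufb3, where 17.3% of all genes were called higher and 18.3% lower. The median was 0.15 (10.6% higher) beside -0.016 for all genes. By role, 5 of 7 core subunits rose, 6 of 9 of the matrix arm, 5 of 8 of the proximal arm, 7 of 10 of the distal arm, Ndufab1, Ndufa4 and Ndufa4l2. Of the 7 assembly factors edgeR's test called 0, with 1 (Ndufaf2) at an unadjusted p under 0.05, and DESeq2's Wald test called 0. Without BML-260 3 days replicate 2 the count of calls was 15, all higher, against 27 with every library. Upper-quartile scaling moved the median of all genes to -0.051 and left 18 calls. The 12 members called in every alternative included Ndufs6, Ndufs7, Ndufs8, Ndufv2, Ndufa6, Ndufa11 and Ndufa12. Of the brown adipocyte markers 4 were called higher here (Cidea, Elovl3, Fabp4 and Ucp1) and 3 lower (Adipoq, Lipe and Pparg), and 6 of 7 preadipocyte and 3 of 4 tested smooth muscle or pericyte markers were called lower.

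Ndufs8, whose promoter is printed above, rose by 0.38 (SE 0.05, edgeR adjusted p = 3.75e-07) at 3 days, the largest value of a member there. Its BML-260 libraries at 3 days lay between the 2 DMSO groups. The authors' deposited table gives 0.38 for this gene. Ndufa11, a membrane subunit of the proximal arm, stood at 116 and 122 CPM with DMSO at 1 day, 123 and 131 with BML-260 at 1 day, 83.1 and 82.2 with ISO, 79.03 and 79.5 with DMSO at 3 days, and 103 and 93.05 with BML-260 at 3 days. The BML-260 and DMSO libraries of 3 days were apart, and those of 1 day nearly met. Ndufa11 rose by 0.30 (SE 0.05, edgeR adjusted p = 8.78e-05) at 3 days, and its 1-day value was 0.092 (SE 0.05, edgeR adjusted p = 0.247). Ndufa6, which binds the acyl carrier protein in the matrix arm, stood at 453 and 474 CPM with DMSO at 1 day, 487 and 536 with BML-260 at 1 day, 347 and 351 with ISO, 333 and 337 with DMSO at 3 days, and 398 and 404 with BML-260 at 3 days. No groups overlapped. Ndufa6 rose by 0.26 (SE 0.05, edgeR adjusted p = 9.33e-05) at 3 days and rose by 0.14 (SE 0.05, edgeR adjusted p = 0.0307) at 1 day, the latter lost without either DMSO library or BML-260 1 day replicate 2. Upper-quartile scaling and only the groups compared also lost the 1-day call of Ndufa6.

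Ndufa12, a matrix arm subunit and the paralogue of Ndufaf2, stood at 228 and 235 CPM with DMSO at 1 day, 241 and 263 with BML-260 at 1 day, 159 and 161 with ISO, 160.1 and 166 with DMSO at 3 days, and 190.3 and 202 with BML-260 at 3 days. BML-260 at 3 days was above DMSO at 3 days and below both 1-day groups. Ndufa12 rose by 0.27 (SE 0.05, edgeR adjusted p = 0.000121) at 3 days, and its 1-day value was 0.12 (SE 0.05, edgeR adjusted p = 0.0779). Ndufs6, a zinc-binding subunit of the matrix arm, stood at 146 and 149 CPM with DMSO at 1 day, 164 and 164 with BML-260 at 1 day, 106 and 109 with ISO, 100.5 and 108 with DMSO at 3 days, and 123 and 124 with BML-260 at 3 days. ISO and DMSO at 3 days overlapped below all other groups. Ndufs6 rose by 0.25 (SE 0.05, edgeR adjusted p = 0.000231) at 3 days and rose by 0.15 (SE 0.05, edgeR adjusted p = 0.0266) at 1 day, the latter lost without any 1 of the 4 libraries compared. DESeq2's Wald test and only the groups compared also lost the 1-day call of Ndufs6. Ndufs7 rose by 0.23 (SE 0.05, edgeR adjusted p = 0.00102) at 3 days. Ndufv2 rose by 0.20 (SE 0.05, edgeR adjusted p = 0.00175), and Ndufs3 and Ndufv1 were called at smaller values (0.15 and 0.12) that lost the call without DMSO 3 days replicate 2 or either BML-260 library of 3 days. Upper-quartile scaling also lost the 3-day calls of Ndufs3 and Ndufv1. Ndufs1 stood at -0.0059, not called.

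The comparisons at 1 and 3 days share no library. Of members called higher, 11 were called at both times, which is 50% of the 1-day list and 42.3% of the 3-day list. Over all genes tested the corresponding 897 genes were 63.3% and 34.2%. The difference between the effects (3 days minus 1 day) was called for 2 of 44 members, 1 in each direction, where 3.93% of genes were called higher and 4.51% lower, so calls at 1 time alone are not shown to differ between times. Ndufb3, of the distal membrane arm, stood at 167 and 157 CPM with DMSO at 1 day, 175 and 182 with BML-260 at 1 day, 121 and 111 with ISO, 121 and 118 with DMSO at 3 days, and 107 and 104 with BML-260 at 3 days. BML-260 was highest at 1 day and lowest of all groups at 3 days. Ndufb3 rose by 0.14 (SE 0.05, edgeR adjusted p = 0.0466) with BML-260 at 1 day, fell by 0.18 (SE 0.05, edgeR adjusted p = 0.00699) at 3 days, and the difference was -0.33 (SE 0.07, edgeR adjusted p = 0.00497). The difference lost its call without DMSO 3 days replicate 1 (adjusted p = 0.0574, with a range of 0.00135 to 0.0574 over 14 alternatives). The 1-day call was lost without DMSO 1 day replicate 2 or either BML-260 library, and the 3-day call without either DMSO library or BML-260 3 days replicate 2. DESeq2's Wald test, upper-quartile scaling, no filter and only the groups compared each lost the 1-day call too.

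**Figure D4:**
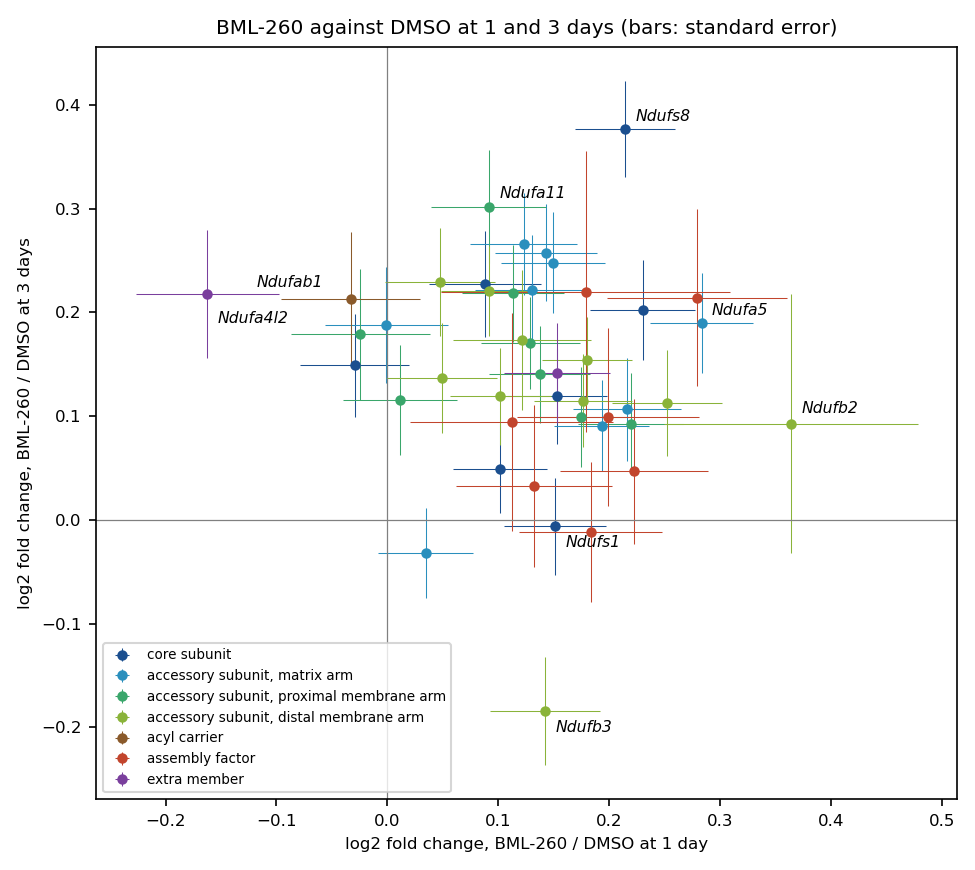
log2 fold change of BML-260 against DMSO at 1 day (x) and at 3 days (y) for the 44 tested genes, coloured by role, with standard errors as bars. Most genes lie right of and above 0, Ndufs8 is the highest at 0.38 on the y axis, Ndufb3 lies below 0 at 3 days and Ndufa4l2 left of 0 at 1 day.

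The assembly factors of the Ndufaf series were low in counts, so each change has a wider error. Ndufaf1, part of the complex that assembles the membrane arm with Ecsit, Acad9 and Tmem126b, stood at 45.1 and 40.9 CPM with DMSO at 1 day, 49.1 and 48.4 with BML-260 at 1 day, 32.5 and 31.9 with ISO, 37.4 and 34.9 with DMSO at 3 days, and 35.1 and 36.6 with BML-260 at 3 days. Ndufaf2, which stands in for its paralogue Ndufa12 during assembly, stood at 26.9 and 25.4 CPM with DMSO at 1 day, 32.2 and 31.3 with BML-260 at 1 day, 19.9 and 22.3 with ISO, 19.2 and 22.4 with DMSO at 3 days, and 24.4 and 23.9 with BML-260 at 3 days. Both had BML-260 at 1 day as the highest group. Ndufaf1 rose by 0.18 (SE 0.06, edgeR adjusted p = 0.0487) at 1 day and fell by 0.41 (SE 0.07, edgeR adjusted p = 1.82e-05) with ISO. Ndufaf2 rose by 0.28 (SE 0.08, edgeR adjusted p = 0.0164) at 1 day and fell by 0.31 (SE 0.09, edgeR adjusted p = 0.00502) with ISO.

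Ndufaf3 and Ndufaf4 act together on the ubiquinone module. Ndufaf3 stood at 36.6 and 42.6 CPM with DMSO at 1 day, 42.7 and 44.2 with BML-260 at 1 day, 27.3 and 26.5 with ISO, 26.1 and 26.8 with DMSO at 3 days, and 27.4 and 26.7 with BML-260 at 3 days. Ndufaf4 stood at 28.7 and 24.2 CPM with DMSO at 1 day, 27.7 and 29.4 with BML-260 at 1 day, 16.6 and 16.5 with ISO, 17.3 and 13.8 with DMSO at 3 days, and 16.8 and 16.4 with BML-260 at 3 days. Each was clearly lower in the ISO and 3-day libraries than in every 1-day library of DMSO or BML-260. Ndufaf3 fell by 0.56 (SE 0.07, edgeR adjusted p = 9.69e-07) and Ndufaf4 fell by 0.67 (SE 0.10, edgeR adjusted p = 3.99e-06) with ISO, and the 1-day BML-260 values were 0.13 and 0.11, not called. Ndufaf5, which hydroxylates an arginine of Ndufs7, stood at 28.9 and 24.6 CPM with DMSO at 1 day, 30.03 and 31.2 with BML-260 at 1 day, 19.9 and 17.9 with ISO, 22.99 and 21.97 with DMSO at 3 days, and 23.4 and 24.7 with BML-260 at 3 days. Its 1-day DMSO libraries overlapped BML-260 at 3 days, and ISO was lowest. Ndufaf5 fell by 0.50 (SE 0.09, edgeR adjusted p = 4.22e-05) with ISO.

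Ndufaf6, needed for early steps of the matrix arm, stood at 9.20 and 8.91 CPM with DMSO at 1 day, 9.40 and 11.03 with BML-260 at 1 day, 8.67 and 8.74 with ISO, 7.53 and 7.27 with DMSO at 3 days, and 7.57 and 9.61 with BML-260 at 3 days. It was the lowest of the 7 in CPM and the only one not called with ISO (-0.056) or over time (-0.29). Ndufaf7, an arginine methyltransferase that acts on the matrix arm, stood at 42.3 and 42.2 CPM with DMSO at 1 day, 49.4 and 49.3 with BML-260 at 1 day, 36.8 and 35.6 with ISO, 36.7 and 33.7 with DMSO at 3 days, and 38.8 and 34.02 with BML-260 at 3 days. BML-260 at 1 day was above all other groups. Ndufaf7 rose by 0.22 (SE 0.07, edgeR adjusted p = 0.0205) at 1 day and fell by 0.22 (SE 0.07, edgeR adjusted p = 0.0111) with ISO. Of the 3 called at 1 day with BML-260, each lost the call in DESeq2's Wald test and when DMSO replicate 2 or BML-260 replicate 1 of 1 day was left out, and Ndufaf1 and Ndufaf7 also without BML-260 replicate 2. Ndufaf7 lost it without DMSO 1 day replicate 1 too. Ndufaf1 lost it with upper-quartile scaling, no filter and only the groups compared. The calls of Ndufaf2 and Ndufaf7 with ISO also depended on single libraries: Ndufaf2 lost it without DMSO 1 day replicate 1 or ISO replicate 1, and Ndufaf7 without ISO replicate 2. DESeq2's Wald test also lost the ISO call of Ndufaf7.

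As a set the assembly factors had medians of 0.18 with BML-260 at 1 day (subunits 0.13), 0.094 at 3 days (subunits 0.15), -0.41 with ISO (subunits -0.43) and -0.29 over time (subunits -0.43). With 7 genes of few counts, whether they differ from the subunits was not tested.

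Ndufa4, a subunit of complex IV, stood at 488 and 476 CPM with DMSO at 1 day, 515 and 556 with BML-260 at 1 day, 290.3 and 284 with ISO, 308 and 306 with DMSO at 3 days, and 323 and 354 with BML-260 at 3 days. No groups overlapped, and it had the largest decrease with ISO of any member. Ndufa4 fell by 0.75 (SE 0.05, edgeR adjusted p = 2.99e-12) with ISO, rose by 0.15 (SE 0.05, edgeR adjusted p = 0.0246) with BML-260 at 1 day and rose by 0.14 (SE 0.05, edgeR adjusted p = 0.0241) at 3 days. Its 1-day call was lost without DMSO 1 day replicate 2 or BML-260 1 day replicate 2, and its 3-day call without DMSO 3 days replicate 2 or BML-260 3 days replicate 2. Upper-quartile scaling also lost the 3-day call of Ndufa4. Ndufa4l2, its paralogue known as a gene induced in hypoxia, stood at 116 and 133 CPM with DMSO at 1 day, 105 and 117 with BML-260 at 1 day, 195 and 190.0 with ISO, 146 and 141 with DMSO at 3 days, and 178 and 156 with BML-260 at 3 days. It was highest with ISO and lowest with DMSO and BML-260 at 1 day, which overlapped. Ndufa4l2 rose by 0.63 (SE 0.06, edgeR adjusted p = 7.35e-09) with ISO, rose by 0.20 (SE 0.06, edgeR adjusted p = 0.0131) over time, a call lost without DMSO 1 day replicate 1 or DMSO 3 days replicate 1, and was higher with ISO than with DMSO at 3 days (0.42 (SE 0.06, edgeR adjusted p = 1.74e-05)). With BML-260 its values were -0.16 (SE 0.06, edgeR adjusted p = 0.0829) at 1 day, not called, and 0.22 (SE 0.06, edgeR adjusted p = 0.0068) at 3 days, a call lost without BML-260 3 days replicate 1. The 1-day value was called lower with no filter on low counts and when DMSO replicate 1 or BML-260 replicate 2 of 1 day was left out, with adjusted p from 0.0147 to 0.715 over all alternatives. The difference between times was 0.38 (SE 0.09, edgeR adjusted p = 0.00773), lost without DMSO 1 day replicate 2 or BML-260 3 days replicate 1, with adjusted p from 0.00032 to 0.0892 over all alternatives.

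**Figure D5:**
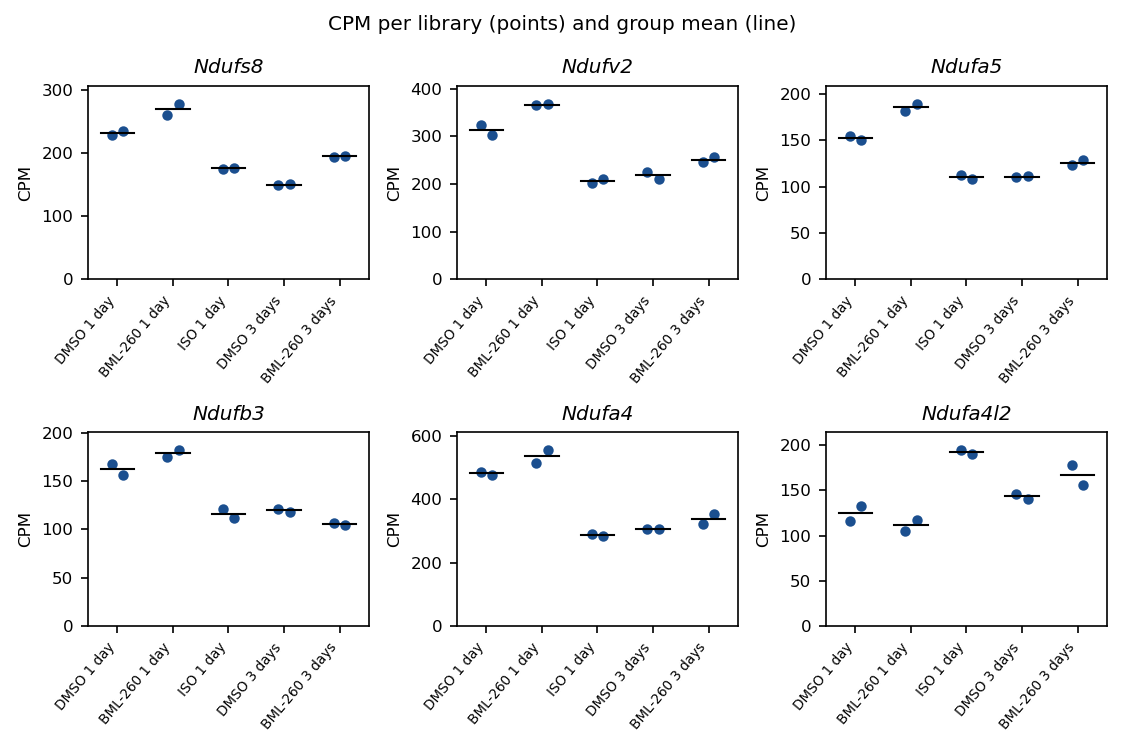
CPM of 6 genes in each library (points) with the group mean (line), for the 5 groups. Ndufs8, Ndufv2, Ndufa5, Ndufb3 and Ndufa4 have their highest mean with BML-260 at 1 day, whereas Ndufa4l2 is highest with ISO.

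Compared with ISO, BML-260 at 1 day had 42 of 44 members higher and 1 lower (Ndufa4l2), where 21.6% and 22.8% of all genes were called in those directions. The median difference was 0.59 (50.3% higher), and all 35 subunits were called. This comparison shares libraries with those above and repeats their levels.

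Other genes of the pathway were read from lists chosen by function. Of 13 further assembly factors, 10 were tested. With BML-260 at 1 day 4 rose, at values of 0.18 for Ecsit, 0.19 for Foxred1, 0.18 for Timmdc1 and 0.24 for Tmem126b. At 3 days Foxred1 (0.26) and Ecsit (0.19) rose and Acad9 fell (-0.15), and Tmem126b differed between times (-0.41 (SE 0.12, edgeR adjusted p = 0.0287)). With ISO 8 of 10 fell, and over time 7 of 10. Of all genes tested, 9.32% were called higher with BML-260 at 1 day, and 17.3% higher and 18.3% lower at 3 days. Called lower were 20.3% with ISO, 16.8% over time and 4.51% for the difference between times.

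Of the 7 mitochondrially encoded complex I genes 2 were analysed here, and both fell with BML-260 at 1 day and with ISO. mt-Nd3, a membrane-arm subunit, stood at 336 and 341 CPM with DMSO at 1 day, 178 and 214 with BML-260 at 1 day, 158 and 143 with ISO, 224 and 242 with DMSO at 3 days, and 145 and 117 with BML-260 at 3 days. DMSO at 1 day was the highest group, and BML-260 was below DMSO at both times. mt-Nd3 fell by 0.79 (SE 0.07, edgeR adjusted p = 1.93e-08) with BML-260 at 1 day, fell by 0.84 (SE 0.08, edgeR adjusted p = 2.1e-09) at 3 days and fell by 1.17 (SE 0.07, edgeR adjusted p = 2.19e-12) with ISO. mt-Nd5, a proton-pumping subunit, stood at 19.1 and 19.6 CPM with DMSO at 1 day, 11.9 and 16.8 with BML-260 at 1 day, 11.1 and 8.40 with ISO, 14.9 and 14.3 with DMSO at 3 days, and 13.5 and 10.2 with BML-260 at 3 days. Its levels were low, and DMSO at 1 day was again highest. mt-Nd5 fell by 0.42 (SE 0.13, edgeR adjusted p = 0.0273) with BML-260 at 1 day and fell by 1.00 (SE 0.14, edgeR adjusted p = 2.34e-06) with ISO, and its 3-day value was -0.31 (SE 0.14, edgeR adjusted p = 0.0931). The sources used here do not give how mitochondrial transcripts were captured.

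Of 11 regulators of nuclear mitochondrial genes, 10 were tested. With BML-260 2 fell at 1 day (Ppargc1b and Yy1), 4 fell and 2 rose at 3 days, and with ISO 6 fell and 2 rose. Of all genes tested, 8.62% were called lower and 9.32% higher with BML-260 at 1 day, and 18.3% and 17.3% at 3 days. With ISO these shares were 20.3% and 21.4%. A difference of the regulators from these shares was not tested. Pprc1, a relative of the coactivator PGC-1 alpha, rose by 0.51 (SE 0.06, edgeR adjusted p = 3.61e-07) with BML-260 at 3 days and rose by 0.57 (SE 0.06, edgeR adjusted p = 6.33e-08) with ISO. Gabpb1, the partner of Gabpa, rose by 0.25 (SE 0.08, edgeR adjusted p = 0.023) and rose by 0.43 (SE 0.08, edgeR adjusted p = 0.000209) in the same comparisons. Esrrg, a relative of Esrra, fell with BML-260 at 3 days (-0.53) and with ISO (-0.77). Esrra, the estrogen-related receptor alpha, fell by 0.66 with ISO and by 0.73 between DMSO at 1 and 3 days, and it was not called with BML-260 (-0.11 and -0.068). Ppargc1a, the coactivator PGC-1 alpha, stood at 0.012 (SE 0.06, edgeR adjusted p = 0.924) with BML-260 at 1 day, -0.28 (SE 0.06, edgeR adjusted p = 0.00082) at 3 days and -0.50 (SE 0.06, edgeR adjusted p = 3.62e-07) with ISO. Ppargc1b, its relative, fell in all 3 comparisons (-0.32, -0.51 and -0.23). Tfam, the factor that packages and transcribes mitochondrial DNA, stood at 0.11 with BML-260 at 1 day, not called, -0.23 at 3 days and -0.42 with ISO, both called. Gabpa, the ETS factor, was called with ISO alone among these 3 comparisons (-0.14), and Nrf1 was not called in any of them.

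Of the nuclear subunits of complexes II to V 45 were tested. With BML-260 20 rose and 1 fell at 1 day, 22 rose and 1 fell at 3 days, and with ISO 38 fell. Of all genes tested, 9.32% were called higher and 8.62% lower with BML-260 at 1 day, and 17.3% and 18.3% at 3 days. With ISO 20.3% were called lower. The medians of the subunits of complexes II to V were 0.11, 0.11 and -0.41 on the log2 scale. These lie near the member medians of 0.14, 0.15 and -0.42, and a difference between the complexes was not tested.

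The authors' deposited tables of genes past their threshold list 12 members at 1 day, all positive for BML-260, and 21 at 3 days, 20 positive and Ndufb3 negative. All of them were called here in the same direction. Both tests rest on the same libraries, so the match is not independent evidence. In edgeR's test 9.32% of all genes were called higher at 1 day, and 17.3% higher and 18.3% lower at 3 days.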

How the data were processed

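RNA of 10 libraries was sequenced from brown adipocytes of C57BL/6 mice, and libraries were grouped by their titles and treatment labels. The authors deposited a table of raw counts per gene symbol, per the file headers, and tables of genes past a threshold with a log2 fold change and adjusted p-value each. Of these, the table of all counts and the 2 tables of BML-260 against DMSO were used here, and 4 others were not. Per the submitters' processing notes the tools named, without order, are TopHat2 2.1.1, bcl2fastq 2.17.1.14, DESeq2 and bedtools, and both mm10 and mm9 appear as builds without a stated role. The sources used here do not give the annotation, strand or counting rule, so reads of overlapping and near-identical genes may be split or merged.

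Counts were fitted whole in edgeR 4.0.16 (R 4.3.3, limma 3.58.1), with TMM scaling and filterByExpr by group (minimum count 10, minimum total 15; 15212 of 24640 genes kept). All 10 libraries entered the quasi-likelihood fit of group means, with a common dispersion of 0.00115 and 5 residual degrees of freedom. P-values were adjusted over all genes by Benjamini-Hochberg, and a gene under 0.05 is said to be called, to have risen or to have fallen. SE is the absolute log2 fold change over the square root of F. The procedure was tested on simulated data. In 7 comparisons the alternatives were DESeq2 1.42.0, its size factors, upper-quartile scaling, no filter, only the groups compared, a replicate block and each library left out.

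Replicate libraries differed by a chi-square of 1.92 to 3.09 per gene on average, where counting error alone gives 1, so none looked like a copy of another. For the 44 tested members the average was 4.58 with DMSO at 1 day and 7.21 with BML-260 at 1 day. It was 2.38 with ISO, 2.68 with DMSO at 3 days and 3.996 with BML-260 at 3 days. The member average was above that of all genes in each group except ISO. For a given spread beyond counting error this chi-square grows with the count of a gene. Members were not set against genes of like count. GENCODE M21 on GRCm38 gave positions and lengths by symbol for all 45 members. The members and lists were chosen with earlier results of these data known. The values of 1 core subunit are not reported here, though it is part of the counts and medians. Values in every library are given for the other core subunits, tested Ndufaf genes, the 5 members of smallest p in each of BML-260 at 1 day, at 3 days and ISO against DMSO, Ndufa4 and Ndufa4l2. Ndufb3 and Ndufb2 are also named for their values.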

Additional observations from a re-analysis of the deposited data

Results flagged for a closer look

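The effect of BML-260 differed between 1 and 3 days for 2 of 44 members, 1 in each direction. The test was of the difference itself, edgeR's contrast of the effects (3 days minus 1 day). In it 3.93% of all genes tested were called higher and 4.51% lower. For Ndufa4l2 the difference was 0.38 on the log2 scale (SE 0.09, edgeR adjusted p = 0.00773). Its values were -0.16 at 1 day, not called, and 0.22 at 3 days. For Ndufb3 the difference was -0.33 (SE 0.07, edgeR adjusted p = 0.00497), from 0.14 to -0.18. Both libraries with BML-260 lay above both with DMSO for Ndufb3 at 1 day and below them at 3 days. The 1-day call of Ndufb3 was lost in DESeq2's Wald test and with upper-quartile scaling, no filter and only the groups compared. It was also lost without DMSO 1 day replicate 2 or either BML-260 library of 1 day. The difference for Ndufb3 lost its call without DMSO 3 days replicate 1. That for Ndufa4l2 lost it without DMSO 1 day replicate 2 or BML-260 3 days replicate 1.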

How the results depend on the processing

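The replicate number as a block gave 23 calls with BML-260 at 1 day, 28 at 3 days, 42 with ISO, 3 for the change between times, 43 for BML-260 at 1 day against ISO, 43 over time and 5 for ISO against DMSO at 3 days, beside 22, 27, 42, 2, 43, 43 and 5 without it. Same-numbered deviations correlated at -0.034 to 0.058 over 10 pairs of groups, and 0 exceeded 0.1. These correlations gave no sign of pairing by number. They cannot exclude it, since replicate differences also hold counting error.

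Leaving out 1 library at a time gave 8 to 18 calls for BML-260 at 1 day, 15 to 24 at 3 days, 41 to 42 for ISO, 1 to 5 for the change between times, 42 to 43 for BML-260 at 1 day against ISO, 39 to 43 over time and 2 to 4 for ISO against DMSO at 3 days. With only the groups compared the difference between times had 4 calls, and DESeq2 gave 3 for ISO against DMSO at 3 days. In the other settings each count stayed within 1.5 times, including 15 in DESeq2 and 17 with upper-quartile scaling for BML-260 at 1 day. Of the member fold changes recomputed for BML-260, ISO and the change between times, 0 called ones changed sign. The Ndufaf genes and Ndufb2 have the fewest counts among tested members and the widest errors with BML-260 at 1 day. When a library was left out, the lone library of its group was taken to vary like the other groups.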

Other observations

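Rows that belong to complex I but do not carry a family symbol behaved as follows. 1810043H04Rik, the older symbol of Ndufaf8, stood at 20.1 and 22.2 CPM with DMSO at 1 day, 20.8 and 24.7 with BML-260 at 1 day, 12.6 and 12.4 with ISO, 11.4 and 12.7 with DMSO at 3 days, and 14.1 and 13.5 with BML-260 at 3 days, and it fell by 0.77 (SE 0.10, edgeR adjusted p = 9.62e-07) with ISO and fell by 0.81 (SE 0.10, edgeR adjusted p = 5.75e-07) between DMSO at 1 and 3 days. Its values with BML-260, 0.11 at 1 day and 0.20 at 3 days, were not called. Gm3244, the older symbol of Ndufb4c and close in sequence to Ndufb4, rose by 0.19 (SE 0.05, edgeR adjusted p = 0.00751) with BML-260 at 1 day, rose by 0.20 (SE 0.05, edgeR adjusted p = 0.00345) at 3 days and fell by 0.45 (SE 0.05, edgeR adjusted p = 9.26e-08) with ISO.

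BC002163 holds 1789 to 2782 counts per library where Ndufs5, at least 95% identical to it over 319 aligned bases, holds 0 to 8. BC002163 rose by 0.15 (SE 0.05, edgeR adjusted p = 0.0397) with BML-260 at 1 day, fell by 0.30 (SE 0.05, edgeR adjusted p = 2.54e-05) with ISO and fell by 0.32 (SE 0.05, edgeR adjusted p = 1.62e-05) over time, and its 3-day BML-260 value was 0.076 (SE 0.05, edgeR adjusted p = 0.263). In all, 8 members (Ndufa12, Ndufab1, Ndufb11, Ndufb3, Ndufb4, Ndufs3, Ndufs5 and Ndufs6) have such a copy over at least 200 aligned bases that shares no exon with them, so their counts are uncertain, and 19 overlap an exon of another gene, 17 of them on the opposite strand, which counts of unknown strandedness cannot separate. Ndufb1 and Ndufb4b were not analysed here.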
